A study of Drosophila melanogaster with 9 samples.

Results

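Pupal eyes of Drosophila melanogaster in which Bonus (Bon) was overexpressed while yorkie (yki) was knocked down were compared with control eyes that expressed mCherry. The comparison rests on 6 of the 9 RNA-seq libraries in the series, chosen by their titles: 3 of the first kind, called Bon+yki-RNAi here, and 3 of the mCherry control. The Bon+yki-RNAi eyes carried UAS-bon-mCherry/+ together with pGMR-GAL4 over UAS-yki-RNAi, the RNAi line being BDSC #34067 of the Bloomington collection. The mCherry eyes were UAS-mCherry (BDSC #35787) over pGMR-GAL4. Where a gene is set beside the effect of Bon alone, the 3 libraries from eyes with UAS-bon-mCherry/+ and pGMR-GAL4/+ are used, called Bon. All eyes carried pGMR-GAL4, a driver active in the differentiating retina behind the morphogenetic furrow. They were taken at 40 to 41 h after puparium formation from crosses kept at 25 °C, and each library came from a pool of 60 eyes. The study asked what Yki and Bon do to transcription when eye and epidermis are chosen between, and ectopic epidermal hairs begin to form in Bon-overexpressing eyes at this age, per the series design.

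Bon is the fly member of the TIF1 family of transcriptional cofactors. Yki is a coactivator of transcription. The kinases of the Hippo cascade keep it out of the nucleus, and with the DNA-binding protein Scalloped it switches on genes for growth and survival. The pupal retina at this age consists of photoreceptors, lens-secreting cone cells and pigment cells, and it has begun to deposit its apical extracellular matrix. Epidermis instead makes actin-based hairs, called trichomes, and a patterned chitin cuticle.

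The design sets limits on what the comparison can show. No library had yki knocked down without Bon, so an effect of the knockdown itself and an effect that needs Bon cannot be told apart. The Bon+yki-RNAi eyes carried 2 UAS transgenes and the other eyes 1, and the lines came from different stocks, which cannot be told apart from the treatment either. In pools of eyes, fewer cells of a type and less RNA per cell cannot be told apart.

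Totals were 37137136 to 39690537 counts in the Bon+yki-RNAi libraries and 34926438 to 48524961 in the mCherry libraries. The first component of variance, 76.8% of the total, set the 3 mCherry libraries apart from the other 6. The second, 14.8%, set the Bon+yki-RNAi libraries apart from the Bon libraries. The lowest correlation between libraries of one group was 0.9979 on the log2 scale. CPM is the count scaled to library size with TMM factors. Of 8 retinal identity markers tested, 6 were lower in Bon+yki-RNAi than in mCherry eyes, 3 of them at least 2-fold, and 1 was higher, with a median log2 fold change of -0.80. Over all genes 29.4% fell, 5.63% at least 2-fold, and 25.1% rose. Of the 8 markers 7 had a mean level above 47.2 CPM, a class in which 71.5% of all genes were called. The summed level of the markers was 1810 to 1835 CPM in Bon+yki-RNAi eyes against 2566 to 2598 CPM in mCherry eyes. All 8 stayed expressed: the neuronal RNA-binding protein gene elav, the one that rose, had 448 ± 5.00 CPM in Bon+yki-RNAi eyes and 376 ± 13.6 CPM in mCherry eyes (SD, n = 3 each), and gl did not pass the test. The rhodopsin gene ninaE had at most 0.103 CPM in any library of either group, too low to be tested.

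The libraries matched their labels. The bon transcript (3R:20593139-20612540 in BDGP6, plus strand) had 4219, 4154 and 4125 CPM in Bon+yki-RNAi eyes, against 175, 170.4 and 176 CPM in mCherry eyes. This was a 24.0-fold rise, a log2 fold change of 4.58 ± 0.04 (± SE, n = 3 each; edgeR quasi-likelihood test, adjusted p = 1.03e-17). The Bon libraries had 5061, 5193 and 4695 CPM, and the Bon+yki-RNAi level was 0.836 times theirs (adjusted p = 6.14e-05). The yki transcript (2R:24065975-24068485, minus strand) had 28.9, 29.3 and 29.3 CPM in Bon+yki-RNAi eyes, against 60.5, 60.0 and 62.8 CPM in mCherry eyes. It fell by 1.06 on the log2 scale (SE 0.03, adjusted p = 1.26e-12), to 0.478 times the mCherry level. In Bon eyes yki stood at 62.3, 62.9 and 62.5 CPM, and its difference from mCherry there did not pass the test (log2 0.04 ± 0.03, adjusted p = 0.33). The knockdown was thus partial at the level of RNA in whole eyes.

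Of 11068 genes tested, 6032 differed between Bon+yki-RNAi and mCherry eyes at an adjusted p under 0.05, which is 54.5% of them. In this count 2773 genes rose (25.1%) and 3259 fell (29.4%). Scaling by upper-quartile factors turned the split round, to 4252 that rose and 2412 that fell, so that rises made up 63.8% of the calls in place of 46.0%. That scaling moved the median of all genes by 0.091 on the log2 scale, and small changes are read with this in mind. The median size of a called change was 0.336 on the log2 scale. Changes of at least 2-fold were fewer and leaned to falls: 341 genes rose (3.08%) and 623 fell (5.63%), 8.71% of the genes tested in all. The share called grew with the level of expression: with genes cut into 3 equal classes by mean CPM, it was 37.2% in the low class, 54.7% in the middle class and 71.5% in the high class, above 47.2 CPM. In the high class 1160 of 3690 genes rose and 1480 fell. Lists of abundant genes are to be read against this class. At 4-fold or more, 107 of all tested genes rose (0.967%) and 226 fell (2.04%).

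**Figure D1:**
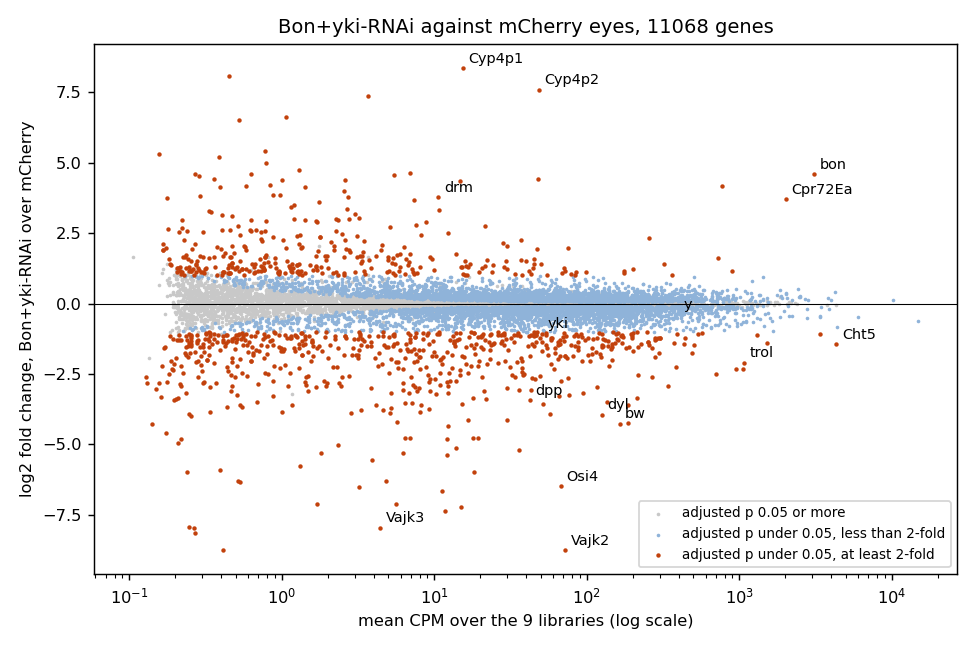
Log2 fold change of each of 11068 tested genes in Bon+yki-RNAi over mCherry eyes (vertical axis) against its mean CPM over the 9 libraries (horizontal axis, log scale). Grey points missed an adjusted p of 0.05, blue points passed it with less than a 2-fold change and orange points passed it with at least a 2-fold change; 341 orange points lie above 0 and 623 below.

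The Cyp4p genes had some of the largest rises. Cyp4p1, Cyp4p2 and Cyp4p3 are neighbouring cytochrome P450 genes within 6.9 kb of chromosome arm 2R. Cyp4p2 (2R:9237512-9239831) had 73.4, 75.4 and 75.5 CPM in Bon+yki-RNAi eyes, against 0.463, 0.428 and 0.237 CPM in mCherry eyes, a log2 fold change of 7.59 ± 0.08 (adjusted p = 3.76e-17). Cyp4p1 (2R:9240041-9242139) had 23.4, 22.5 and 23.1 CPM in Bon+yki-RNAi eyes, against 0.0515, 0.0428 and 0.118 CPM in mCherry eyes. Its 2770 counts against 8 give a 95% counting interval of 7.44 to 9.64 for the log2 ratio. The groups lay far apart for both genes. Cyp4p3, chosen after its values were seen, had 144 counts in the 3 Bon+yki-RNAi libraries and 3 in the 3 mCherry libraries. None of the 3 genes passed the test between Bon+yki-RNAi and Bon eyes: the log2 difference was 0.10 ± 0.04 for Cyp4p2 (95% interval 0.02 to 0.18, adjusted p = 0.0516) and 0.01 ± 0.05 for Cyp4p1 (interval -0.10 to 0.13, adjusted p = 0.88). Reads shared between such relatives may have been divided among them by the authors' counting.

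All 4 Vajk genes fell. Vajk2 (2L:13932559-13934692, minus strand) had 0.509, 0.467 and 0.521 CPM in Bon+yki-RNAi eyes, against 213, 209.6 and 224 CPM in mCherry eyes, a log2 fold change of -8.75 ± 0.13 (adjusted p = 2.17e-12). Its neighbour Vajk3 had 6 counts in the Bon+yki-RNAi libraries against 1561 in the mCherry libraries, with a counting interval of -9.48 to -6.91 on the log2 scale. Vajk4 fell by 4.35 and Vajk1 by 3.19 on the log2 scale (adjusted p = 1.1e-13 and 3.07e-13). Every Bon+yki-RNAi library lay below every mCherry library for each of them. Against Bon eyes the Vajk2 difference did not pass the test (log2 -0.21 ± 0.37, interval -1.04 to 0.62), while Vajk4 was higher by 1.00 ± 0.18 and Vajk1 differed by -0.64 ± 0.10. Vajk1, Vajk2 and Vajk3 overlap Ance-3 on the opposite strand, whose log2 fold change of -3.18 is close to that of Vajk1, and the strand used in counting is not given in the sources used here.

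**Figure D2:**
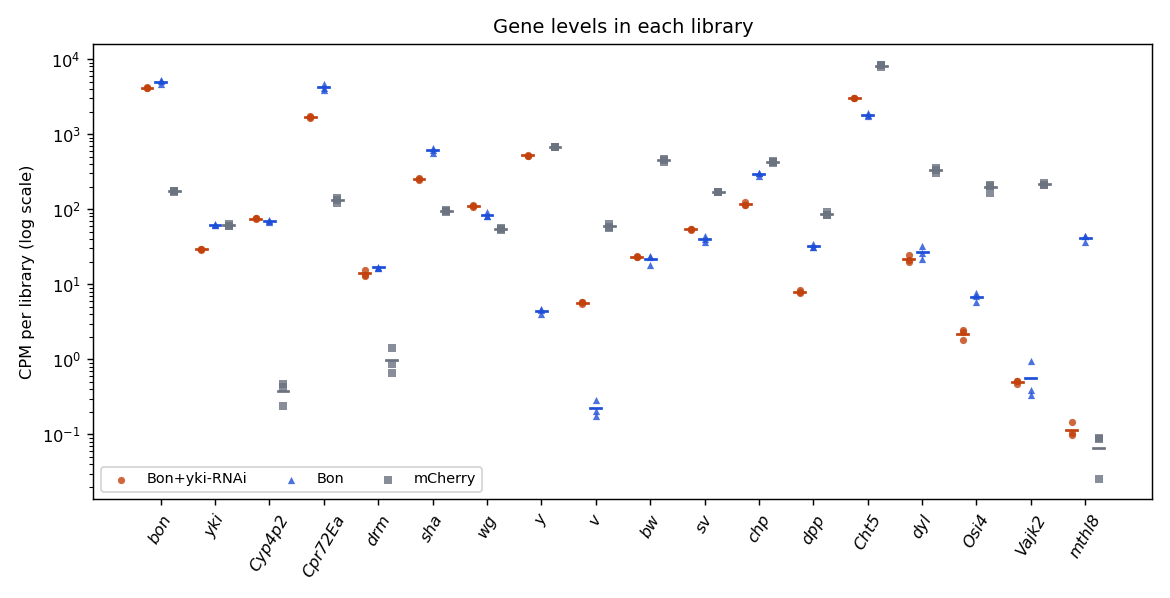
CPM (log scale) of 18 genes in each Bon+yki-RNAi (orange circles), Bon (blue triangles) and mCherry (grey squares) library, with bars at the group means. The 3 libraries of a group lie close together for most genes; y is near the mCherry level in Bon+yki-RNAi eyes and low in Bon eyes, while Cyp4p2 and Vajk2 have about the same level in Bon+yki-RNAi and Bon eyes.

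Beyond bon and the P450 genes, the largest rises among named genes belonged to a mixed group. Among them was drm, of the odd-skipped family of zinc-finger transcription factors. drm had 15.7, 13 and 13.4 CPM in Bon+yki-RNAi eyes, against 0.875, 1.41 and 0.651 CPM in mCherry eyes (log2 3.78 ± 0.16, adjusted p = 1.22e-09). Its relatives sob and odd, in the same 67.5 kb of arm 2L, rose as well: sob had 2.86, 2.61 and 2.55 CPM in Bon+yki-RNAi eyes against 0.335, 0.321 and 0.326 CPM in mCherry eyes (log2 3.02), and odd had 135 counts against 9, with a counting interval of 2.93 to 5.05. The other member, bowl, lies elsewhere and did not pass the test (log2 -0.15 ± 0.06, adjusted p = 0.0524), although it passed under 4 of the 15 alternatives. In a background of 3.08% of genes that rose at least 2-fold, 3 of the 4 members did.

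Cpr72Ea, a cuticle protein with a chitin-binding domain, had 1661, 1742 and 1690.2 CPM in Bon+yki-RNAi eyes, against 121, 139.6 and 132 CPM in mCherry eyes (log2 3.70 ± 0.07, adjusted p = 2e-11). This was the second largest gain in CPM after bon. The neighbouring genes CG18735 and tpr, on arm 2R, rose by 4.16 and 4.36 on the log2 scale, and CG18735 reached 722, 765 and 751 CPM in Bon+yki-RNAi eyes against 38.3, 44.6 and 41.7 CPM in mCherry eyes. The odorant-binding protein gene Obp56a and the yolk protein gene Yp3 rose by 2.32 and 2.26 on the log2 scale. All of these were lower in Bon+yki-RNAi than in Bon eyes: the log2 difference between those groups was -1.3 ± 0.06 for Cpr72Ea, -1.03 ± 0.06 for CG18735, -1.70 ± 0.15 for tpr, -1.76 ± 0.09 for Obp56a and -0.86 ± 0.08 for Yp3. Their adjusted p in that comparison lay between 2.01e-07 and 8.12e-05. By contrast the serine protease gene Sp212 (log2 3.31 against mCherry) and the immunoglobulin-domain gene dpr18 (log2 2.91) missed the threshold against Bon.

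The rises of zld, the zinc-finger factor that opens the early embryonic genome, and of D2hgdh, a D-2-hydroxyglutarate dehydrogenase, were uneven. zld had 17.3, 10.3 and 5.41 CPM in the 3 Bon+yki-RNAi libraries, against 1.85, 1.18 and 2.13 CPM in mCherry eyes (log2 2.72 ± 0.50, adjusted p = 0.00327). D2hgdh had 45.9, 26.9 and 6.30 CPM in Bon+yki-RNAi eyes, against 4.53, 4.71 and 4.56 CPM in mCherry eyes (log2 2.52 ± 0.71, adjusted p = 0.0236). In both genes the same library was highest and the same one lowest within the Bon+yki-RNAi group. Without Bon+yki-RNAi replicate 1 the D2hgdh value became 1.86 with an adjusted p of 0.0536, and it missed the threshold under 5 other alternatives.

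Large falls reached genes of several functions. The pigment-cell retinol dehydrogenase gene Pdh had 0.897, 0.811 and 0.807 CPM in Bon+yki-RNAi eyes, against 50.8, 52.2 and 55.6 CPM in mCherry eyes (log2 -5.97 ± 0.07, adjusted p = 1.43e-16). PGRP-LB, a peptidoglycan amidase that dampens immune signalling, fell by 5.37, the fatty acid hydroxylase Fa2h by 5.19 and the collagen hydroxylase relative PH4alphaMP by 5.30 on the log2 scale. The multicopper oxidase Mco4 had 14 counts in the Bon+yki-RNAi libraries against 1969 in the mCherry libraries, and the chorion protein gene Cp38 had 4 against 598, with counting intervals of -8.02 to -6.40 and -9.12 to -5.87. Of these, Fa2h and PH4alphaMP were higher in Bon+yki-RNAi than in Bon eyes, by 1.93 ± 0.24 and 1.74 ± 0.34 on the log2 scale (adjusted p = 0.00018 and 0.0014). By CPM the largest losses were in CG13023, Cht5, tyn, CG13082, alphaTub84B and trol. The perlecan gene trol had 551, 527 and 546 CPM in Bon+yki-RNAi eyes, against 2408, 2156 and 2364 CPM in mCherry eyes (log2 -2.09 ± 0.04, adjusted p = 4.13e-14). Pdh overlaps the antisense gene asRNA:CR45894 (log2 -6.65) and Fa2h overlaps CG11125 (log2 -4.13), and reads of such partners cannot be told apart without strand.

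The Hippo pathway genes themselves moved little. Of 34 components tested, 8 rose and 14 fell, 1 of them by 2-fold, so 64.7% were called, against 54.5% over all genes. By level 30 of the 34 lay in the high class, where 71.5% of all genes were called. Under upper-quartile scaling 17 components rose and 10 fell, so no direction is read from the list. The F-box gene Fbxl7, which acts on the protocadherin Fat, had the largest change and fell by 1.26 on the log2 scale, to 69.7, 68.3 and 69.4 CPM in Bon+yki-RNAi eyes against 166, 169 and 160.1 CPM in mCherry eyes. The kinase gene wts fell by 0.36 and the kinase gene hpo rose by 0.21. The Yki partner gene sd had a log2 fold change of 0.05 ± 0.03 that did not pass the test (adjusted p = 0.148). Both kinase genes and sd were chosen for their place in the cascade.

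Among 20 textbook targets of Yki tested, 11 fell and 5 rose, 80.0% called. Of the 20, 13 lay in the high class by level, where 71.5% of all genes were called. With upper-quartile factors 9 fell and 7 rose. The apical Hippo component ex, a classical Yki target chosen after its values were seen, had 41.1, 41.6 and 41.4 CPM in Bon+yki-RNAi eyes, against 89.4, 94.0 and 81.7 CPM in Bon eyes and 62.3, 54.3 and 58.8 CPM in mCherry eyes. Its level was thus below both: the log2 difference was -1.10 ± 0.06 against Bon (adjusted p = 3.95e-08) and -0.50 ± 0.06 against mCherry (adjusted p = 1.25e-05). The cell-death inhibitor Diap1 fell by 0.32, the Golgi kinase fj by 0.59 and the protocadherin ft by 0.39 on the log2 scale. The glypican gene dlp fell most, by 1.57, and its difference from Bon was -0.10 ± 0.03. Other members went up. The Wnt ligand gene wg had 114, 110.1 and 108 CPM in Bon+yki-RNAi eyes, against 56.1, 55 and 52.7 CPM in mCherry eyes (log2 1.02 ± 0.04, adjusted p = 1.55e-10), and it was higher than in Bon eyes as well (0.39 ± 0.04). upd2, a JAK/STAT ligand, had 218 counts against 10, with a counting interval of 3.53 to 5.51.

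Eye pigment genes were lower. All 7 ommochrome genes, which make and load the brown pigment, fell in Bon+yki-RNAi eyes, 3 of them at least 2-fold, where 29.4% of all genes fell and 5.63% did so by 2-fold. The first enzyme of the pathway, tryptophan dioxygenase v, had 5.53, 5.8 and 5.83 CPM in Bon+yki-RNAi eyes, against 58.4, 62.6 and 56.9 CPM in mCherry eyes (log2 -3.38, adjusted p = 5.22e-15). The next enzymes KFase and cn fell by 2.14 and 2.48, the ABC transporter w by 0.98 and its partner st by 0.20 on the log2 scale. Against Bon, 6 of the 7 were higher in Bon+yki-RNAi eyes, where 11.3% of all genes were: w had 294, 283 and 300.0 CPM in Bon+yki-RNAi eyes and 177, 182 and 159 CPM in Bon eyes (log2 0.76). For v the Bon libraries held only 0.290, 0.174 and 0.205 CPM. Copies of v, w and y serve as visible markers on many fly transgenes, and the labels do not give the markers or alleles of these lines. The part of such copies in these values was not tested.

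Among 12 pteridine genes, which make the red pigment, 7 fell and 1 rose, where 29.4% and 25.1% of all genes did. The transporter bw, the partner of w for this pigment, had 23.2, 23 and 23.9 CPM in Bon+yki-RNAi eyes, against 446, 465 and 432 CPM in mCherry eyes (log2 -4.26 ± 0.08, adjusted p = 1.99e-10). The enzymes Pu and Sptr fell by 1.02 and 1.15. Both were a little lower than in Bon (log2 -0.52 ± 0.04 and -0.22 ± 0.06), whereas bw did not pass the test there (0.10 ± 0.09, interval -0.12 to 0.31). Of 18 genes for pigment granule traffic 11 fell and 2 rose, none by 2-fold, and with upper-quartile factors 5 fell and 5 rose. Without mCherry replicate 2 the falls numbered 7. The 4 lens genes all fell. Crys, the main secreted lens protein, had 12 counts against 1120 (counting interval -7.51 to -5.75), and retinin 1 count against 85 (counting interval -11.74 to -3.90). The lens cuticle proteins Cpr72Ec and Cpr66D fell by 1.11 and 0.99, and Cpr72Ec was higher than in Bon by 1.23 ± 0.18 (adjusted p = 0.00188).

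The regulators of eye identity split. Of 14 retinal determination genes tested, 6 rose and 5 fell, all by less than 2-fold, where 25.1% and 29.4% of all genes rose and fell. By level 9 of the 14 lay in the high class, where 71.5% of all genes were called, against 78.6% of this list. The transcription partners eya and so fell by 0.86 and 0.74 on the log2 scale. eya had 286, 282 and 289 CPM in Bon+yki-RNAi eyes, against 515, 527 and 508 CPM in mCherry eyes. The Pax6 genes toy and ey rose by 0.52 and 0.42, and the zinc-finger gene tsh by 0.94. Both Pax6 genes lie on chromosome 4, whose genes had a median log2 fold change of 0.18, and both also stand among the markers of brain and optic lobe neurons, 8 of 14 of which rose. Against Bon, 7 of the 14 were higher in Bon+yki-RNAi eyes and none was lower, eya and toy by 0.21 each. Over all genes 11.3% were called higher there.

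Cone and pigment cell regulators leaned down: 8 of 13 fell and 1 rose, against 29.4% and 25.1% over all genes. Upper-quartile scaling gave 8 falls and 4 rises, and 9 of the 13 lay in the high class by level. The Pax2 gene sv, needed in cone and primary pigment cells, had 53.7, 54.6 and 53.2 CPM in Bon+yki-RNAi eyes, against 168, 171 and 171 CPM in mCherry eyes (log2 -1.66 ± 0.04, adjusted p = 3.78e-13). The homeobox gene B-H1 fell by 1.15 and the Notch ligand gene Delta by 0.99. sv was 0.41 higher than in Bon on the log2 scale, and B-H1 differed from Bon by -0.15. Photoreceptor fate genes leaned the other way, with 10 rises and 5 falls among 23, and 16 and 5 under upper-quartile scaling. pnt and oc rose by 0.49 and 0.47, while gl, a zinc-finger factor of photoreceptors chosen for its role, did not pass the test (log2 0.03 ± 0.03, adjusted p = 0.53). The immunoglobulin adhesion gene sns, chosen after its values were seen and known for sorting pigment cells in the lattice, fell by 1.16. Of 16 lattice adhesion genes 8 fell and 4 rose, and 15 of the 16 lay in the high class by level.

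Phototransduction genes moved in both directions, 15 up and 12 down among 30, so 90.0% were called. Over all genes 25.1% rose and 29.4% fell, and 19 of the 30 lay in the high class by level. The rhabdomere adhesion protein chp had 112, 114 and 124 CPM in Bon+yki-RNAi eyes, against 299, 275 and 306 CPM in Bon eyes and 442, 431 and 415 CPM in mCherry eyes. It fell by 1.88 against mCherry and by 1.33 against Bon on the log2 scale (adjusted p = 4.08e-12 and 7.66e-10). The sodium-calcium exchanger Calx fell by 1.63 and the rhabdomere myosin ninaC by 0.97. ninaC was higher than in Bon by 0.32. Among genes chosen after their values were seen, the light-gated channel trp fell by 1.35 and the arrestin Arr2 by 1.09, whereas the scaffold inaD rose by 0.57 and the lumen matrix gene eys by 1.16.

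Synaptic and neuronal genes rose by small amounts: 21 of 30 rose and 3 fell, where 25.1% and 29.4% of all genes did, with a median log2 fold change of 0.27, where the median of all genes was 0. With upper-quartile factors 25 rose and 2 fell, and 24 of the 30 lay in the high class by level. Syt1, the calcium sensor of vesicle release, had 426, 414 and 420.0 CPM in Bon+yki-RNAi eyes, against 312, 289 and 321 CPM in mCherry eyes (log2 0.45 ± 0.03, adjusted p = 3.88e-08). The exceptions were Hdc, the enzyme that makes the photoreceptor transmitter histamine, which fell by 1.05, futsch, which fell by 0.60, and the potassium channel gene Shal, named after its values were seen, which fell by 0.13. Markers of brain and optic lobe neurons moved with this list. Of 14 tested, 8 rose and 1 fell, and their summed level was 1050 to 1066 CPM in Bon+yki-RNAi eyes against 777.5 to 862.1 CPM in mCherry eyes. Among the risers were bsh, by 0.76 to 0.78, and slp1, by 0.56 to 0.6 on the log2 scale with each library left out in turn. Lim1, hbn and Vsx1, of the lamina and medulla, stayed below 8 CPM in both groups. The part of brain and optic lobe neurons in the rise of the neuronal genes was not tested.

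**Figure D3:**
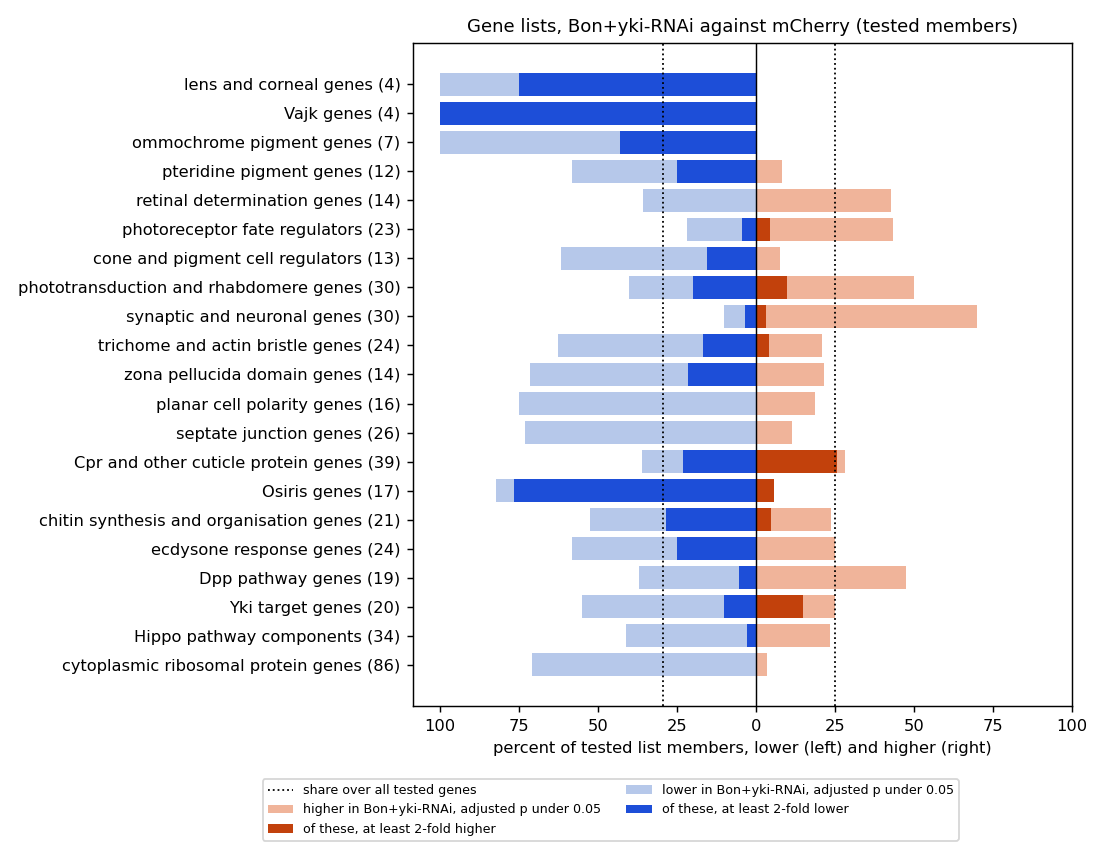
Percent of tested members of 21 gene lists that were lower (left, blue) or higher (right, orange) in Bon+yki-RNAi than in mCherry eyes at an adjusted p under 0.05, with changes of at least 2-fold in the dark shade and tested members in parentheses. Dotted lines mark the shares over all tested genes, 29.4% lower and 25.1% higher; lens, Vajk, ommochrome and Osiris genes reach far to the left and neuronal genes to the right.

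The hair-forming genes of the epidermis were mostly not raised in Bon+yki-RNAi eyes. Among 24 trichome and actin bristle genes tested, 5 rose and 15 fell against mCherry, where 29.4% of all genes fell. With upper-quartile factors 8 rose and 14 fell. Of the 24, 23 lay in the high class by level, where 71.5% of all genes were called. Against Bon, 3 rose and 16 fell, where 11.3% and 16.3% of all genes did. Bon+yki-RNAi eyes thus stood below Bon eyes for most of these genes.

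A few members remained higher than in the control. sha, a gene of actin hair outgrowth, had 257, 252 and 248 CPM in Bon+yki-RNAi eyes, against 616, 652 and 563 CPM in Bon eyes and 95.5, 92.4 and 98.2 CPM in mCherry eyes. It differed by -1.27 ± 0.05 from Bon and by 1.41 ± 0.05 from mCherry on the log2 scale (adjusted p = 8.99e-10 and 7.53e-11), so its level lay between the 2 groups with no overlap. ovo, whose Shavenbaby product directs trichome formation, had 88.6, 84.8 and 86.9 CPM in Bon+yki-RNAi eyes, against 114, 128 and 97.5 CPM in Bon eyes and 45.5, 46.3 and 52.4 CPM in mCherry eyes. It rose by 0.86 against mCherry (adjusted p = 0.000193) and differed from Bon by -0.38 ± 0.10 (adjusted p = 0.022). ovo was chosen for its role, outside the rule for naming genes.

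Other hair genes stood at the control level or below it. The actin-bundling protein gene f, also chosen for its role, had 198, 194 and 189 CPM in Bon+yki-RNAi eyes, against 369, 385 and 360.0 CPM in Bon eyes and 190.0, 182 and 180.0 CPM in mCherry eyes. It did not pass the test against mCherry (log2 0.07, interval 0.00 to 0.14, adjusted p = 0.0753) and its log2 difference from Bon was -0.94. The filamin gene cher fell by 1.48 and the villin relative qua by 1.54 against mCherry. cher was also lower than in Bon (-1.05 ± 0.03), whereas the Bon difference of qua was 0.07 ± 0.03 and did not pass the test (adjusted p = 0.167).

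Zona pellucida proteins anchor the apical matrix to hair and cell surfaces, and the list showed every pattern. Of 14 tested, 10 fell and 3 rose against mCherry, where 29.4% and 25.1% of all genes did. By level 12 of the 14 lay in the high class. Against Bon, 11 were lower and 1 higher, where 16.3% and 11.3% of all genes were. dyl had 19.5, 20.8 and 24.4 CPM in Bon+yki-RNAi eyes, against 303, 356 and 331 CPM in mCherry eyes (log2 -3.94 ± 0.15, adjusted p = 3.71e-07), and its relative dy fell by 2.13. mey had 500.2, 484 and 493 CPM in Bon+yki-RNAi eyes, against 1238, 1209 and 1177 CPM in Bon eyes and 860.0, 869 and 849 CPM in mCherry eyes. It fell by 0.80 against mCherry on the log2 scale, and it was also below Bon (adjusted p = 2.54e-13). nyo and qsm remained above mCherry, by 0.28 and 0.86, and below Bon, with differences of -0.64 and -0.59. For neo and m the Bon+yki-RNAi level was slightly under mCherry (log2 -0.12 and -0.23) and under Bon (log2 -0.75 and -0.75). The neo value against mCherry is little larger than the shift of 0.091 between scalings.

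**Figure D4:**
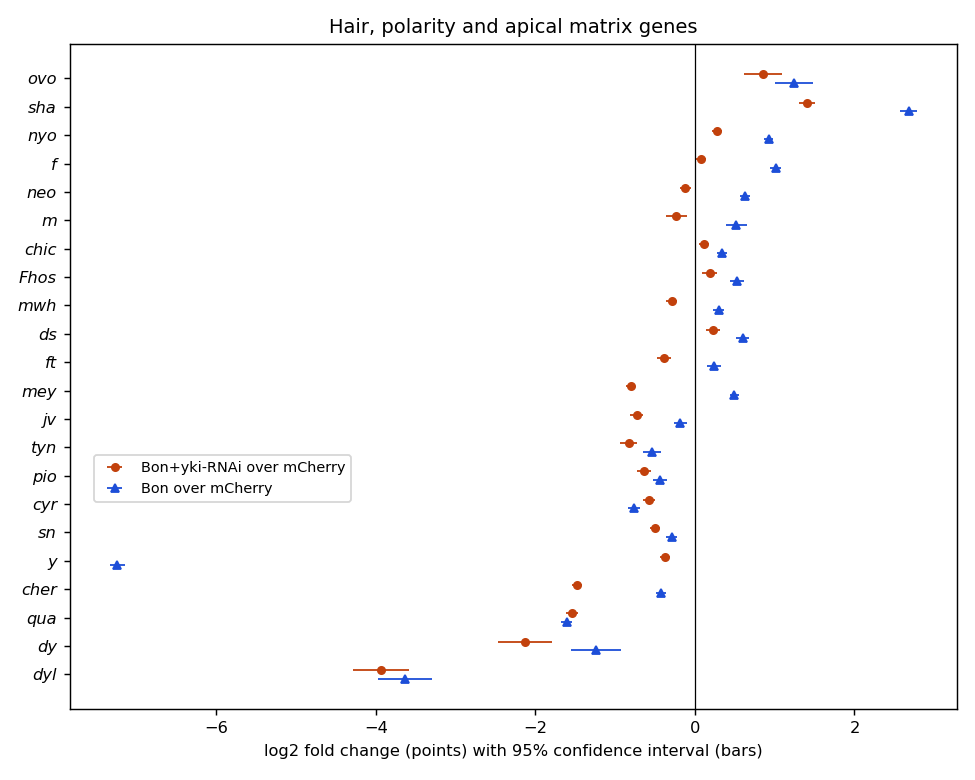
Log2 fold change with 95% confidence interval of 22 hair, polarity and apical matrix genes in Bon+yki-RNAi over mCherry eyes (orange circles) and in Bon over mCherry eyes (blue triangles). Both share the mCherry libraries; most orange points lie left of their blue neighbours, and y lies near 0 in Bon+yki-RNAi eyes but far to the left in Bon eyes.

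Planar polarity genes, which orient hairs and ommatidia, fell in small steps, 12 of 16 against 3 that rose, none by 2-fold. Over all genes 29.4% fell and 25.1% rose. With upper-quartile factors 6 of the 16 fell and 4 rose, and 14 of the 16 lay in the high class by level. frtz and fj fell by 0.44 and 0.59, and nmo, a kinase of ommatidial rotation, rose by 0.45. Septate junction genes, which seal epithelia, fell in 19 of 26 cases and rose in 3, with 16 and 5 under upper-quartile factors, and all 26 lay in the high class by level. The adhesion protein Fas3 had 603, 623 and 624 CPM in Bon+yki-RNAi eyes, against 1001, 1039 and 958 CPM in mCherry eyes (log2 -0.70 ± 0.03). Gli, a tricellular junction protein, rose by 0.56. Neither differed from Bon at the threshold: the log2 difference was -0.05 ± 0.03 for Fas3 (interval -0.12 to 0.01) and -0.02 ± 0.03 for Gli (interval -0.07 to 0.04).

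Cuticle genes changed in both directions and by large amounts. Of 126 Cpr, Twdl and other cuticle protein genes in the files, 39 passed the filter on low counts, 10 of them at least 2-fold higher and 9 at least 2-fold lower. Over all genes 3.08% rose and 5.63% fell by that much. By level 28 of the 39 lay in the low class, where 272 of 3689 genes rose and 325 fell at least 2-fold. A gene could pass the filter through its higher group alone. The 87 others were too low to test. After Cpr72Ea several rises were at low levels, as in Cpr62Bc with 2.21, 2.43 and 2.55 CPM in Bon+yki-RNAi eyes against 0.566, 0.535 and 0.444 CPM in mCherry eyes. Cpr49Ah had the largest fall in CPM, to 106, 103 and 101 CPM in Bon+yki-RNAi eyes against 337, 336 and 329 CPM in mCherry eyes (log2 -1.69 ± 0.04). Cpr49Ah lay below Bon too (-0.64 ± 0.04). Cpr62Bc was chosen after its values were seen.

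Of 21 genes for chitin 11 fell and 5 rose, where 29.4% and 25.1% of all genes did. The chitin synthase gene kkv, chosen for its role, had 25.9, 22.7 and 26.4 CPM in Bon+yki-RNAi eyes, against 45.5, 47.9 and 44.2 CPM in Bon eyes and 131, 163 and 167 CPM in mCherry eyes (log2 -2.62 ± 0.11 against mCherry, adjusted p = 1.84e-07). exp, which acts with kkv in chitin deposition, fell by 3.06. The growth factor relative Idgf6 rose by 2.03 and Idgf4 fell by 1.87, and both were higher than in Bon, by 0.64 and 0.97. The chitinases split: Cht5 had 3027, 2997 and 2999 CPM in Bon+yki-RNAi eyes, against 8232, 8419 and 7805 CPM in mCherry eyes (log2 -1.44 ± 0.04), while Cht10 had 724, 682 and 717 CPM in Bon+yki-RNAi eyes, against 232, 221 and 239 CPM in mCherry eyes (log2 1.62 ± 0.06). Both lay closer to the control than in Bon eyes, where Cht5 averaged 1813 ± 93.0 CPM and Cht10 averaged 1222 ± 115 CPM (SD, n = 3).

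Osiris genes, which encode membrane proteins of cuticle-secreting cells and lie on arm 3R in 16 of 17 tested cases, fell in 14 of 17 cases, 13 of them by at least 2-fold, where 5.63% of all genes did. Osi22, chosen as the only riser, rose by 1.59. Osi4 had 2.43, 1.79 and 2.29 CPM in Bon+yki-RNAi eyes, against 7.68, 5.78 and 6.92 CPM in Bon eyes and 165, 213 and 206 CPM in mCherry eyes (log2 -6.49 ± 0.17, adjusted p = 2.3e-08), and Osi1 fell by 7.20. Against Bon, 11 were lower and none was higher, where 16.3% and 11.3% of all genes were. Markers of trachea, a tissue that uses Osiris and chitin genes, gave 4 falls and 1 rise among 8 (3 rises without Bon+yki-RNAi replicate 2). Over all genes 29.4% fell and 25.1% rose against mCherry. The summed level of the tracheal markers was 2290 to 2376 CPM in Bon+yki-RNAi eyes against 3312 to 3480 CPM in mCherry eyes. uif and pio made up most of that sum, and the tracheal regulators trh and btl stayed below 3 CPM in both groups. At that low level trh fell, with log2 fold changes of -1.8 to -1.34 with each library left out in turn. The value of vvl, which rose, was 0.22 to 0.29. The part of trachea in the Osiris and chitin results was not tested.

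Among tanning genes 5 rose and 7 fell of 14, where 25.1% and 29.4% of all genes did. amd, for a cuticle catechol enzyme, fell to 0.509, 0.737 and 0.755 CPM in Bon+yki-RNAi eyes against 16.6, 19.8 and 17.9 CPM in mCherry eyes (log2 -4.76 ± 0.13, adjusted p = 7.41e-13), and yellow-f2 rose by 1.89. In the yellow family 3 of 9 rose and 4 fell, with yellow-b up by 2.12 and yellow-e down by 2.27, and both stayed below 2 CPM in Bon+yki-RNAi and mCherry eyes. The falls in this family numbered 2 under upper-quartile scaling, in DESeq2, without mCherry replicate 2 and without Bon+yki-RNAi replicate 3, so no balance is read from it.

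Signalling genes gave a few large changes among many small ones. The BMP ligand gene dpp had 7.95, 7.72 and 8.36 CPM in Bon+yki-RNAi eyes, against 34.7, 31.8 and 31.8 CPM in Bon eyes and 92.7, 83.2 and 84.3 CPM in mCherry eyes. It fell by 3.44 against mCherry and by 2.03 against Bon on the log2 scale (adjusted p = 5.22e-15 and 1.44e-11), and its 3 groups did not overlap. The inhibitory Smad gene Dad, which Dpp signalling induces, fell by 0.67, and brk, which it represses, rose by 0.99 to 65.3, 70.2 and 69.6 CPM in Bon+yki-RNAi eyes against 34.5, 33.1 and 35.9 CPM in mCherry eyes. The receptor genes tkv and put, chosen for their role, had log2 fold changes of -0.13 and 0.05, and put did not pass the test (adjusted p = 0.11). Over the 19 Dpp pathway genes 9 rose and 7 fell, where 25.1% and 29.4% of all genes did. For Wingless 7 of 23 rose and 7 fell, but 11 and 3 did under upper-quartile scaling. The head and epidermal regulator hh, the Hedgehog ligand gene, fell by 1.45, to 38.9, 36.7 and 41.7 CPM in Bon+yki-RNAi eyes against 106, 108 and 105 CPM in mCherry eyes.

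Notch target genes of the E(spl) complex and their relatives gave 3 rises and 4 falls of 10, beside 25.1% and 29.4% over all genes. E(spl)m3-HLH had 39.2, 40.6 and 36.2 CPM in Bon+yki-RNAi eyes, against 19.3, 21.0 and 18 CPM in Bon eyes and 133, 145 and 145 CPM in mCherry eyes. It fell by 1.87 against mCherry and was 0.99 above Bon. Hey, another basic helix-loop-helix target of Notch, had 0.752, 0.909 and 0.859 CPM in Bon+yki-RNAi eyes, against 14.9, 15.9 and 15.7 CPM in mCherry eyes (log2 -4.20 ± 0.10), with no difference from Bon past the threshold (0.01 ± 0.16, interval -0.34 to 0.36). The Bearded-family gene Tom rose by 1.59.

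Genes of the ecdysone response fell in 14 of 24 cases and rose in 6, where 29.4% and 25.1% of all genes did. ImpL2, an insulin-binding protein, had 99.0, 93.2 and 95.6 CPM in Bon+yki-RNAi eyes, against 281, 279 and 280.5 CPM in mCherry eyes (log2 -1.55 ± 0.03, adjusted p = 4.13e-14), and ImpE1 and E23 fell by 0.92 and 0.94. The 6 risers, named after their values were seen except Hr4, were the nuclear receptor genes Eip75B, Eip78C, Hr3, Hr4 and Hr39 and the ETS factor gene Eip74EF. Hr4 had 2675, 2608 and 2813 CPM in Bon+yki-RNAi eyes, against 1977, 1778 and 1948 CPM in mCherry eyes (log2 0.51 ± 0.05, adjusted p = 6.83e-07). The ecdysone receptor gene EcR, chosen for its role, did not pass the test (log2 -0.02 ± 0.03, adjusted p = 0.58).

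In the cell cycle list 11 genes rose and 8 fell of 33, so 57.6% were called, near the 54.5% of all genes. The cyclin gene CycA had 43.6, 43.6 and 45.0 CPM in Bon+yki-RNAi eyes, against 21.9, 21.8 and 21.8 CPM in mCherry eyes (log2 1.01 ± 0.03), and the mitotic kinase gene polo rose by 2.02. dap, the inhibitor that holds cells out of the cycle, fell by 1.81, and the replication origin gene Orc1 by 2.08. The Yki targets CycE and Myc, chosen for their role, gave log2 fold changes of -0.25 and 0.36. Of 18 apoptosis genes 8 rose and 5 fell, none by 2-fold, where 25.1% and 29.4% of all genes did. Upper-quartile scaling gave 10 and 3, and the falls also numbered 3 in DESeq2 and without Bon+yki-RNAi replicate 3. Among the rises were all 4 death activators of one cluster, rpr, hid, grim and skl, of which hid had 157, 161 and 159.8 CPM in Bon+yki-RNAi eyes and 94.8, 93.7 and 99.9 CPM in mCherry eyes (log2 0.73 ± 0.05). rpr, grim and skl were named after their values were seen, with log2 fold changes of 0.79, 0.51 and 0.55. Of 16 JNK and tissue stress genes tested 7 rose and 3 fell, beside 25.1% and 29.4% over all genes. Upper-quartile scaling gave 13 rises and 3 falls, and 11 of the 16 lay in the high class by level. In this list the matrix protease gene Mmp1, a common target of JNK signalling, rose by 1.08. Ets21C and Timp fell, with log2 fold changes of -2.23 and -0.74.

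Basement membrane genes fell in 7 of 12 cases and rose in 1, where 29.4% and 25.1% of all genes did. Upper-quartile scaling gave 7 falls and 3 rises, and 11 of the 12 lay in the high class by level. After trol, the laminin gene wb fell by 1.36, the collagen IV gene vkg by 0.77 and SPARC by 0.68, while Col4a1 did not pass the test (log2 -0.00 ± 0.03, interval -0.07 to 0.07) and the nidogen gene Ndg rose to 21.0, 18.7 and 19.6 CPM in Bon+yki-RNAi eyes against 9.78, 7.67 and 6.51 CPM in mCherry eyes. Hemocytes, blood cells that make basement membrane, had 6 of 9 markers lower and none higher. Their summed level was 608.8 to 626.8 CPM in Bon+yki-RNAi eyes against 754.8 to 796.7 CPM in mCherry eyes, most of it from lz, Pxn and vkg, which the retinal or matrix lists also hold. The defining marker Hml lay at 0.606, 1.03 and 0.677 CPM in Bon+yki-RNAi eyes and 1.36, 1.20 and 1.72 CPM in mCherry eyes, and He was at 0 in every library. The part of hemocytes in the matrix result was not tested.

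Cytoplasmic ribosomal protein genes moved in small steps: 61 of 86 fell and 3 rose, none by 2-fold, with a median of -0.13. Over all genes 29.4% fell and 25.1% rose. By level 82 of the 86 lay in the high class, where 1480 of 3690 genes fell and 1160 rose. With upper-quartile factors 22 fell and 6 rose. Of 70 respiratory complex genes 19 fell and 7 rose, so 37.1% were called, where 54.5% of all genes were. Without mCherry replicate 2 the falls numbered 12. Upper-quartile scaling gave 5 falls and 24 rises, and no direction is read for them.

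The test of Bon+yki-RNAi against Bon set the double genotype against Bon alone: 3054 genes were called, 27.6% of those tested, 1251 higher (11.3%) and 1803 lower (16.3%). At least 2-fold, 124 were higher (1.12%) and 190 lower (1.72%), 2.84% together. The values below set each leading gene of that comparison beside its control level, and they share libraries with the comparison above.

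Several genes that were low in Bon eyes stood near the control. The pigmentation gene y, which also acts in cuticle and hair, had 513, 518 and 532 CPM in Bon+yki-RNAi eyes, against 4.06, 4.76 and 4.59 CPM in Bon eyes and 676, 676 and 669 CPM in mCherry eyes. Its log2 difference from Bon was 6.87 ± 0.04 (adjusted p = 1.21e-19), and it fell by 0.37 against mCherry. Copies of y serve as visible markers on many fly transgenes, and the labels do not give the markers or alleles of these lines. The part of such copies in the y values was not tested. Mocs1, for molybdenum cofactor synthesis, had 20.8, 21.2 and 22.3 CPM in Bon+yki-RNAi eyes, against 4.78, 4.99 and 6.05 CPM in Bon eyes and 22.1, 20.9 and 21.1 CPM in mCherry eyes, and its difference from mCherry did not pass the test (log2 0.01 ± 0.06, interval -0.12 to 0.13). The dynein heavy chain gene Dhc98D was above both, by 2.12 against Bon and 0.65 against mCherry. The clock gene Clk and the immune receptor gene PGRP-LC also stood above both, by 1.98 and 1.55 against Bon and by 1.44 and 1.33 against mCherry. kn rose against Bon (log2 1.43 ± 0.39, adjusted p = 0.0347) but did not pass the test against mCherry.

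Other genes were high in Bon eyes and near the control level in Bon+yki-RNAi eyes. The receptor gene mthl8 had 0.146, 0.0983 and 0.104 CPM in Bon+yki-RNAi eyes, against 43.4, 36.8 and 44.1 CPM in Bon eyes and 0.0257, 0.0857 and 0.0888 CPM in mCherry eyes, which is 14 counts in the Bon+yki-RNAi libraries and 8 in the mCherry libraries (counting interval of the log2 ratio -0.56 to 2.26). The Wnt ligand gene Wnt2 had 1.02, 1.23 and 1.09 CPM in Bon+yki-RNAi eyes, against 6.08, 7.21 and 6.66 CPM in Bon eyes and 0.849, 1.07 and 0.918 CPM in mCherry eyes. Osi10, galene and the overlapping genes p24-2 and Unc-115b followed the same pattern. Their log2 differences from Bon lay between -3.03 and -2.44, and none passed the test against mCherry (adjusted p from 0.197 to 0.406). p24-2 and Unc-115b lie on the same strand over almost the same positions, and their reads cannot be told apart. Nox, an NADPH oxidase, and Osi3 were below both groups: Nox had 2.28, 2.41 and 2.81 CPM in Bon+yki-RNAi eyes, against 18.8, 15.4 and 16.5 CPM in Bon eyes and 5.82, 6.17 and 6.07 CPM in mCherry eyes. For Osi3 the fall against mCherry (log2 -1.34 ± 0.41, adjusted p = 0.0302) missed the threshold under 6 of the 15 alternatives.

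The small chromosome 4 had a higher share of rises than the other arms. Of its 96 tested genes 65 rose and 6 fell in Bon+yki-RNAi eyes, 74% called, with a median log2 fold change of 0.18. On the other arms 51.5 to 57.1% of genes were called, and their medians lay between -0.01 and 0.01. Of the 96 genes 60 lay in the high class by level, where 71.5% of all genes were called, so the share called is close to that of abundant genes. In that class 1160 of 3690 genes rose and 1480 fell. For the 96 genes upper-quartile scaling left 71 rises and 5 falls. The summed level of its tested genes was 18290 to 18410 CPM in Bon+yki-RNAi eyes, against 15650 to 16230 CPM in mCherry eyes, with no overlap. The changes were small, since 3 of the 96 rose at least 2-fold and 1 fell so far. In the Bon+yki-RNAi against Bon comparison 36 of the 96 were higher and 13 lower, with a median of 0.08. Over all genes 11.3% were higher and 16.3% lower there. Bon eyes without the knockdown had the same lean against mCherry: 56 of the 96 rose and 10 fell, with a median of 0.11. Their summed level was 17820 to 18190 CPM.

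**Figure D5:**
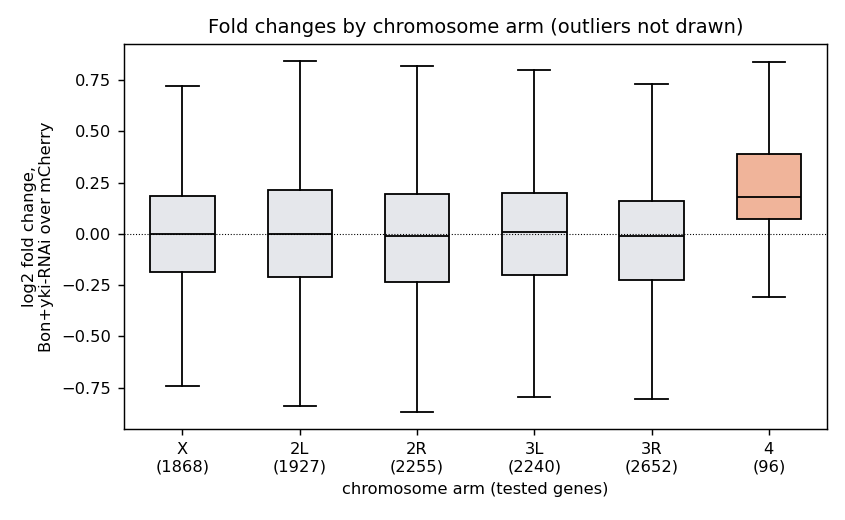
Log2 fold change of tested genes in Bon+yki-RNAi over mCherry eyes by chromosome arm, with the number of genes in parentheses. Boxes span the quartiles with the median as a line and whiskers reach 1.5 times the box height; the box of chromosome 4 runs from 0.07 to 0.39 around a median of 0.18, while the medians of the other arms lie between -0.01 and 0.01.

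For markers of other tissues that a dissected eye could carry, the share called was 72.7% in glia, 28.6% in muscle and 20% in fat body. Over all genes 54.5% were called, 25.1% higher and 29.4% lower. Of the muscle and fat body markers, 10 of 14 and 7 of 10 lay in the low class by level, where 37.2% were called. For glia 4 of 11 rose and 4 fell, with a summed level of 1322 to 1352 CPM in Bon+yki-RNAi eyes against 1609 to 1629 CPM in mCherry eyes. The glial gene repo rose by 0.27 and wrapper fell by 1.41. For muscle 2 of 14 rose and 2 fell (1 rose without mCherry replicate 2 or 3 or Bon+yki-RNAi replicate 3), and Mhc and Act88F varied between libraries of one group without a difference past the test. For fat body 2 of 10 rose, Yp3 and Adh. Sex markers gave a summed level of 1121 to 1416 CPM in Bon+yki-RNAi eyes and 915.7 to 1356 CPM in mCherry eyes, which overlap, and lncRNA:roX1 did not pass the test (log2 -0.03 ± 0.28). The part of these tissues in the results above was not tested.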

How the data were processed

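The authors deposited 1 table per library with estimated counts per gene, which need not be whole, and gene positions, per the file headers. Libraries were made from 100 ng of total RNA with an mRNA isolation module and read as pairs of 150 nt, per the labels' protocols. STAR 2.7.0e, Bowtie2 2.3.5.1, cutadapt 2.9, Subread 1.6.2 with featureCounts, and DESeq2 1.30.1 are named with the build BDGP6 in the submitters' processing notes. No role is given there for any of them, nor the strand setting or the treatment of shared reads. Of 222 named genes 90 overlap another tested gene. Counts were rounded, filtered with filterByExpr (minimum count 10, which kept 11068 of 17558 genes) and scaled by TMM (factors 0.961 to 1.04). The quasi-likelihood test of edgeR 4.0.16 in R 4.3.3 (robust, 9 libraries, group as the only term, two-sided) gave log2 fold changes, with standard errors from the F statistic, and p-values adjusted by Benjamini-Hochberg over all tested genes, at a threshold of 0.05; DESeq2 1.42.0 was an alternative. Every adjusted p in the text is from edgeR. Each group had n = 3, the biological replicates of the series design. Counting intervals are exact binomial, 95%, and cover counting error only. The scripts were tested on simulated counts.

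Lists and members were chosen with earlier results of these data known, so the list counts are descriptions beside the share over all genes, with no list test. Named genes were bon, yki, Cyp4p2 and Vajk2, the 12 largest rises and falls with separate libraries and at least 5 CPM (3 each for CG names), the 6 largest rises and falls in CPM, up to 4 members per list by smallest p, the 8 largest rises and falls against Bon, and any member of families of up to 15 genes. Others are marked as chosen for their role or after their values were seen. Sequences were not used here.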

Additional observations from a re-analysis of the deposited data

How the results depend on the processing

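The 15 alternatives were other size factors, no filter on low counts, DESeq2, a replicate block, the 6 compared libraries alone, and each library left out. They turned no direction among the named genes that were called in the main fit. Changes of sign in uncalled genes were not counted. Mocs1 against mCherry, for example, ranged from -0.02 to 0.04 with each library left out in turn. Over them, 3569 results of single genes gave 3535 with the same call, 24 lost and 10 gained. The number of genes that rose against mCherry moved most: 4252 with upper-quartile factors against 2773, and the fallen ones numbered 2412 against 3259. In the comparison with Bon the rises then made up 52.3% of the calls in place of 41.0%. This scaling also moved 24 of 104 counts of list members by over 1.5 times, where any other alternative moved at most 5. With each library left out in turn, the count of called genes against mCherry ranged from 5481 to 6181, and against Bon from 2291 to 3338. Calls that were lost concern D2hgdh, Osi3, Mef2, and zld and kn against Bon: leaving out Bon replicate 1 or 2 took zld against Bon to an adjusted p of 0.0566 or 0.0606, and kn against Bon was lost under 6 alternatives. The deviations of libraries with the same number correlated by 0.0927, 0.0395 and 0.0764 between Bon+yki-RNAi and mCherry eyes, by 0.13, 0.0149 and 0.0599 between Bon+yki-RNAi and Bon eyes and by 0.136, 0.143 and 0.297 between Bon and mCherry eyes. Each Bon+yki-RNAi and mCherry library correlated best with its own number in the other group, a hint of shared numbers from the data and not from the design; the values against mCherry stay below 0.1, so the numbers were not used to pair. The replicate block gave 6266 calls (2942 higher and 3324 lower) against mCherry and 3448 against Bon, lost the Osi3 call (adjusted p = 0.0646) and gained that of kn against mCherry. At these depths 3 counts are 0.0618 to 0.0859 CPM, so falls to that level are bounded by counting error. The groups were too small to look for single outlying libraries.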

Other observations

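Clock genes moved apart. Of 10 tested 4 rose and 4 fell, where 25.1% and 29.4% of all genes did. The repressor gene per had 33.2, 32.5 and 33.0 CPM in Bon+yki-RNAi eyes, against 76.6, 68.4 and 69.7 CPM in mCherry eyes (log2 -1.12 ± 0.04; edgeR quasi-likelihood test, adjusted p = 1.64e-11), and the repressor of Clk transcription, vri, fell by 1.23. Its target Clk rose by 1.44, tim by 0.44 and Pdp1 by 0.44. The per and vri levels did not differ from Bon at the threshold (log2 -0.04 ± 0.04 and 0.10 ± 0.10), whereas Clk and tim were higher than in Bon.

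Recognition of peptidoglycan gave 3 rises and 1 fall among 8 genes, with 3 falls without mCherry replicate 3 and 2 without Bon+yki-RNAi replicate 1. Thus 50% were called, near the 54.5% of all genes, of which 25.1% rose and 29.4% fell. The neighbouring receptor genes PGRP-LC, PGRP-LA and PGRP-LF all rose, by 1.33, 0.63 and 1.09 on the log2 scale against mCherry, and all were higher than in Bon, by 1.55, 0.45 and 1.53. Of 52 P450 genes tested 15 rose and 17 fell, 61.5% called against 54.5% over all genes. Of 23 heat shock genes 7 rose and 6 fell, 56.5% called, which is also near the share over all genes. In the methuselah-like family, mthl13 had 195 counts in Bon+yki-RNAi eyes and 13 in mCherry eyes, with a counting interval of 3.09 to 4.83 for the log2 ratio.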
